A study of Rattus norvegicus with 21 samples.

Results

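A set of 51 transcripts, of 30404 in the deposited rat tables, was selected for a higher level in microglia sorted 24 h after an experimental stroke than in sham microglia and in macrophages. Selection used the counts of each library scaled to a common total (CPM), averaged over a group, plus 1. A transcript was kept where this level in 24h microglia was at least 10, at least 3 times that of 24h sham microglia, and at least 2 times that of 24h macrophages. Of 377 transcripts that met the first 2 conditions, 326 did not meet the one on macrophages. The 24h values below therefore describe the selection and were not tested. The 7D libraries played no part in it and were used for every test.

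The study sequenced messenger RNA of sorted brain immune cells from adult Wistar rats (spelled "Winstar" in the labels). The rats had a 90 min occlusion of the middle cerebral artery (MCAO) with reperfusion, or a sham operation, and cells came from the operated side. Sham animals had the external carotid artery tied off, without the filament. By title, the 21 libraries formed 2 sets, 24h and 7D, with microglia and macrophages after MCAO and microglia after sham. Each of these groups had 3 libraries at 24h and 4 at 7D, by title. The gates were CD11b+ with low CD45 for microglia and CD11b+ with high CD45 for blood-derived macrophages. There were no sham macrophages, so macrophages against sham differ in both cell type and injury. The labels call the replicates biological but name no animals, so the p-values below reflect spread among libraries that may be partly technical.

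Several labels conflict, and groups here follow the titles. The cell fraction field of 24h microglia replicate 3 reads high CD45 and that of 24h macrophage replicate 3 reads low CD45, the reverse of their titles. With these 2 libraries exchanged, the same rule kept 5 transcripts, of which 2 were among the 51. Without both of them it kept 42, of which 39 were among the 51. Each of the 12 libraries titled 7D is given 24h in its treatment field, and the source and gate of the 4 titled as macrophages read as those of microglia. The labels thus leave the time of the 7D set, and the sort of its macrophages, unsettled, which touches each 7D comparison with them. The treatment field of the sham libraries names a PBS injection.

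Microglia are the resident macrophages of the brain, seeded in the embryo and maintained there by self-renewal. After ischaemia they sense dying cells, retract their processes, divide, and switch on genes for cytokines, chemokines, phagocytosis and lipid handling. Monocytes enter from the blood over the following days and become macrophages that share surface markers and many induced genes with activated microglia. Transcripts that are higher in microglia than in these incoming cells are often used to tell the populations apart.

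Transcripts carry Ensembl identifiers with no gene names beside them, and 0 of the 30404 identifiers matched a table of 47357 rat genes (RefSeq, GRCr8). No gene function, marker list or sequence could therefore be attached to a member, and the labelled cell types were not checked against markers. Members are numbered 1 to 51 by their mean level in 24h microglia. Identifiers are given for 2 that rose and for 2 that were called lower in macrophages than in sham. One more is given for a member singled out after its values were seen.

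Total expected counts per library, the estimated number of reads assigned to transcripts, ranged from 6923630 to 9668961 at 24h and from 11115359 to 15401910 at 7D by title. From 15836 to 17351 transcripts were detected per library. Mean fragment length ranged from 156.9 to 170.8 nt at 24h and from 178.3 to 193.1 nt at 7D, so levels of the 2 sets come from libraries that also differ in depth and fragment size.

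In the 24h set the 51 transcripts spanned a wide range of abundance. Mean levels in microglia ran from 8.99 to 3587 CPM with a median of 50.3 CPM, after TMM scaling of library sizes. Per length of transcript they ran from 2.77 to 2694 TPM (the authors' length-corrected share of all transcripts) with a median of 35.1 TPM. The medians of the same members were 5.92 CPM in sham microglia and 14.6 CPM in macrophages. By the measure used for selection, microglia stood 3.003 to 45.9 times above sham (median 6.48) and 2.00 to 11.4 times above macrophages (median 3.06).

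The 24h macrophages were not at sham level for all members. Their level was between 0.42 and 13.0 times that of sham microglia, with a median of 1.85. It was at least 2 times sham for 23 members and below sham for 3. Among the macrophage libraries, replicate 2 held the highest value for 36 of the 51 members (70.6%), against 36.6% of all transcripts tested in the 7D set. Among the microglia libraries the highest value fell in replicate 1 for 26 members, in replicate 2 for 10 and in replicate 3 for 15.

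All 3 microglia libraries lay above every sham and every macrophage library for 49 of the 51 members. The selection used these same libraries and favours such a separation, and its share over all transcripts was not computed. The 2 exceptions were members 30 and 39. Values nearest to the limits were close on both sides. The lowest level kept was 10.02 and the highest left out by that limit was 9.41. For the fold over sham these values were 3.003 and 2.992, and for the fold over macrophages 2.003 and 1.925. Within 10% of the limit on macrophages there were 11 members inside and 14 transcripts outside.

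**Figure D1:**
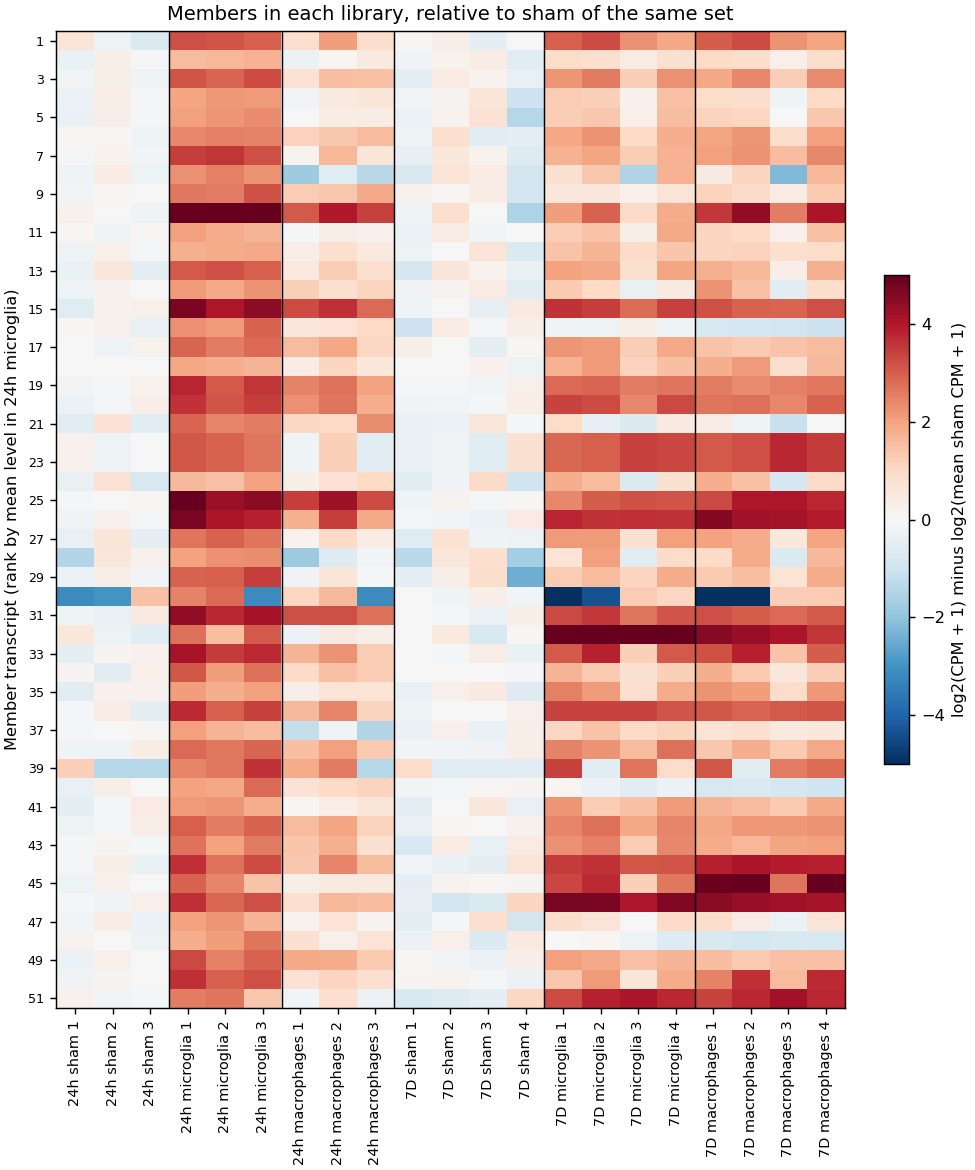
Each row is 1 of the 51 members in order of mean level in 24h microglia and each column is 1 of the 21 libraries. Colour gives log2(CPM + 1) minus log2 of the mean sham CPM + 1 of the same set, and the scale ends at 5 in either direction. The 24h microglia columns are red by selection, and in the 7D set both microglia and macrophage columns are red for most rows.

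Summed over the 51 members, the level in 24h microglia was 14637, 14316 and 14629 CPM. It was 3349, 5467 and 4394 CPM in 24h macrophages and 2432, 2857 and 2201 CPM in 24h sham. The 7D sums were 16217, 18255, 9415 and 14944 CPM in microglia. They were 15526, 17175, 8800 and 15038 CPM in macrophages and 4132, 5982, 6173 and 3147 CPM in sham.

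As means with SD, the sum was 14527 ± 183 (n = 3) in 24h microglia and 14708 ± 3783 (n = 4) in 7D microglia. The group whose sum differed most between the sets was the macrophages, with 4403 ± 1059 (n = 3) at 24h and 14135 ± 3672 (n = 4) at 7D. Sham was 2497 ± 332 (n = 3) and 4858 ± 1466 (n = 4). Every 7D microglia and macrophage library lay above every sham library in this sum. The direction in the 24h set is fixed by the selection, and the 2 sets were not tested against each other. Members were kept for low 24h macrophage and sham levels relative to 24h microglia, which favours higher sums of both in the 7D set. A rise between the sets cannot be read from these sums. In sorted bulk cells, fewer cells expressing a transcript and less RNA per cell cannot be told apart.

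**Figure D2:**
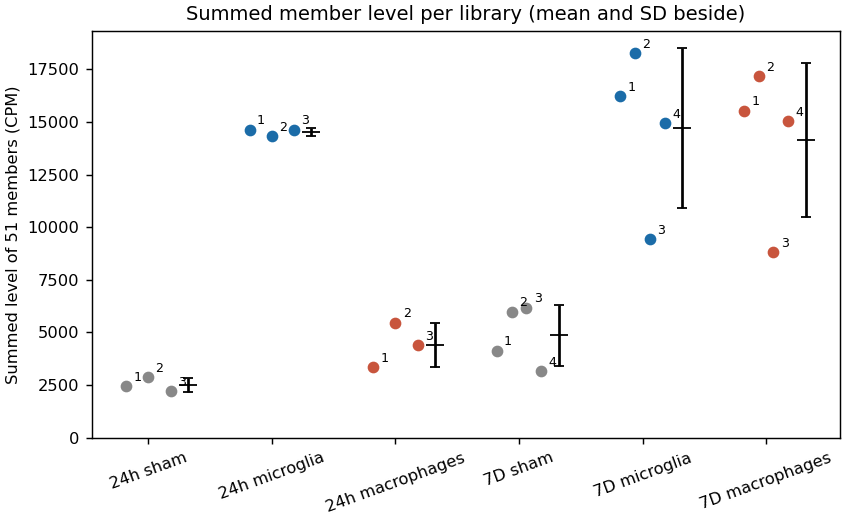
Points give the sum of the 51 members in CPM for each of the 21 libraries, numbered by replicate, with the group mean and SD as a line and bar beside them. The 7D macrophages (8800 to 17175 CPM) overlap the 7D microglia (9415 to 18255 CPM). The 24h macrophages, low by selection, lie at 3349 to 5467 CPM.

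Member 1 had the highest mean level in the 4 MCAO groups, while member 2 had it in both sham groups, at 563 CPM in the 24h set and 938 CPM in the 7D set. The share of member 1 in the sum ran from 5.68% to 31.8% over the libraries. Its values were 3833, 3639 and 3288 CPM in 24h microglia, 731, 1739 and 760 CPM in 24h macrophages, and 641, 340 and 249 CPM in 24h sham. It stood at 3813, 4552, 2344 and 1817 CPM in 7D microglia and at 3889, 4612, 2252 and 1844 CPM in 7D macrophages. The 7D sham libraries held 500, 578, 351 and 470 CPM. All MCAO libraries of the 7D set lay above all sham libraries, with log2 fold changes of 2.70 ± 0.35 (SE; adjusted p = 8.6e-05, edgeR) for microglia and 2.70 ± 0.35 (adjusted p = 5.2e-05) for macrophages. Library by library, the microglia and macrophage values of the same number were near each other. Without member 1, the mean sums were 11576 ± 3050 CPM in 7D microglia, 10986 ± 3027 CPM in 7D macrophages and 4384 ± 1482 CPM in 7D sham (n = 4 each).

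The first question put to the 7D set was whether transcripts selected in 24h microglia were also higher in 7D microglia than in 7D sham. They were, for most. Of the 51 members, all of which passed the filter on low counts, 39 were higher (76.5%) and 0 were lower, with an adjusted p under 0.05 in edgeR's quasi-likelihood test. Across all 13384 transcripts tested, 22.9% were higher and 23.2% lower. The median log2 fold change of the members was 1.99, against -0.03 over all transcripts tested. Of the 39, 38 rose by at least 2-fold, 24 by at least 4-fold and 16 by at least 8-fold. Of all 13384 transcripts tested, 1035, 398 and 185 rose by these amounts. Microglia libraries all lay above the sham libraries for 36 members (70.6%), against 20.7% of all transcripts tested.

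These counts can be set beside the 326 transcripts that met the first 2 conditions but were not sufficiently higher in 24h microglia than in macrophages. Of their 325 that were tested, 285 were higher in 7D microglia than in sham (87.7%) and 1 was lower, with a median log2 fold change of 2.18. The members thus rose over 7D sham in a smaller share than the transcripts that failed the condition on macrophages. That difference in share was not tested. At the cuts of 2-, 4- and 8-fold, 272, 183 and 88 of the 325 rose. Microglia libraries all lay above the sham libraries for 83.4% of the 325.

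By the measure used for selection, 7D microglia were 0.83 to 49.8 times sham for the members, with a median of 3.41. The fold was smaller than in the 24h set for 44 members and larger for 7. Members were kept for a high 24h fold, which favours a smaller fold in the 7D set. A decline between the sets cannot be read from this count. Sham itself had the higher level in the 7D set for 35 members, while 7D microglia were above 24h microglia for 21. The selection likewise favours a higher sham and a lower microglia level in the 7D set. No change between the sets can be read from these counts, and their shares over all transcripts were not computed. At 7D, 46 members were at a level of at least 10 in microglia, 41 were at least 2 times sham and 31 at least 3 times sham. The first 2 conditions together were met by 29.

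**Figure D3:**
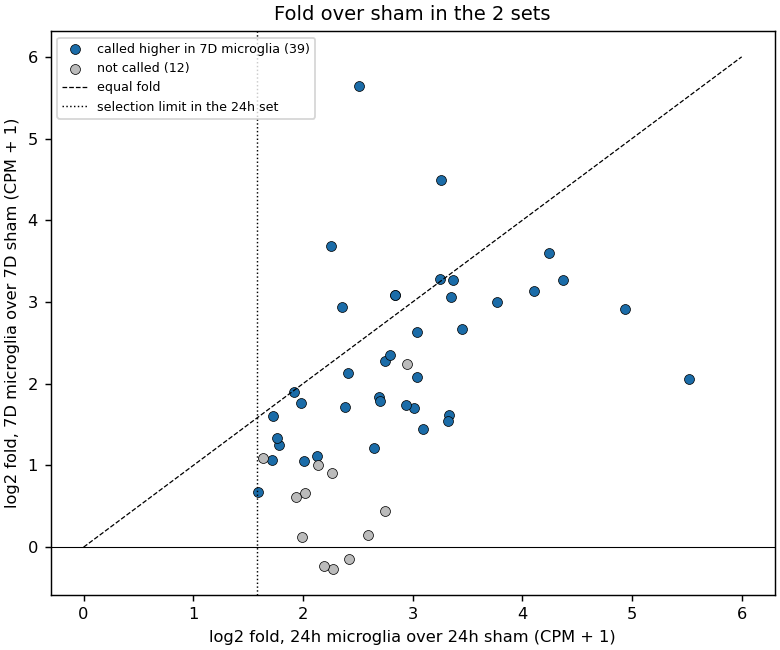
Each point is 1 member, with the log2 fold of microglia over sham in the 24h set (used for selection) on the x axis and in the 7D set on the y axis, both from mean CPM + 1. Blue points (39) were called higher in 7D microglia than in sham and grey points (12) were not. Most points lie under the dashed line of equal fold, which selection on the x axis favours, and 7 lie above it.

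The largest rise belonged to ENSRNOT00000012760 (member 32, 3474 nt). Its 24h levels were 36.6, 14.9 and 45.2 CPM in microglia, 3.51, 6.71 and 5.91 CPM in macrophages, and 7.24, 3.74 and 2.77 CPM in sham. In the 7D set microglia held 230, 215, 179 and 113 CPM, macrophages 80.4, 71.5, 57.7 and 40.3 CPM, and sham 2.44, 3.87, 1.09 and 2.63 CPM. The 3 groups of the 7D set did not overlap, and sham was lowest and microglia highest. Its log2 fold change over sham was 6.14 ± 0.38 (SE, adjusted p = 4.8e-07) in microglia and 4.57 ± 0.36 (adjusted p = 1.2e-06) in macrophages. It was the 1 member that met the whole selection rule again when the 7D groups took the place of the 24h groups. Of all 30404 transcripts, 3 met it there.

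The next largest rise was that of ENSRNOT00000017784 (member 46, 7421 nt). Its 24h values were 17.8, 10.3 and 13.0 CPM in microglia, 1.70, 3.75 and 3.44 CPM in macrophages, and 0.40, 0.36 and 0.79 CPM in sham. The 7D microglia held 59.6, 59.2, 35.8 and 55.1 CPM and the 7D macrophages 50.3, 45.7, 40.8 and 38.5 CPM. The 7D sham libraries held 0.71, 0.20, 0.36 and 3.74 CPM, so that replicate 4 stood apart while still far under every MCAO library. The log2 fold change over sham was 5.40 ± 0.54 (SE, adjusted p = 1.2e-05) in microglia and 5.13 ± 0.54 (adjusted p = 9.7e-06) in macrophages, and without sham replicate 4 they reached 6.92 and 6.65. Microglia and macrophages overlapped, with a log2 difference of -0.27 ± 0.40 (adjusted p = 0.74).

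Members 22 and 23, both 1161 nt long, had identical values in every library, so the set held 50 distinct profiles. This profile was 102, 111, 150 and 143 CPM in 7D microglia, 117, 131, 192 and 159 CPM in 7D macrophages, and 9.94, 11.5, 8.14 and 22.8 CPM in 7D sham. It was among the 7 with a larger fold over sham in the 7D set, at 8.51 against 7.16 times. It was also a case where the libraries numbered 3 were the highest of both MCAO groups. The pair holds 1 observation, though both members enter the counts given here. Counted once, 38 of 50 profiles were higher than sham in 7D microglia. In 7D macrophages 38 were then higher than sham and 3 lower.

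The 12 members that did not pass the test against 7D sham fell into several patterns. For 6 of them the difference from sham was under 0.5 on the log2 scale. These were members 9, 16, 21, 30, 40 and 48, with log2 fold changes from -0.35 to 0.49, although the value of member 30 turned with the method, as given below. Members 16, 40 and 48 had the 3 values below 0 in the whole set. The other 6 had positive log2 fold changes from 0.72 to 3.74, with wide spreads between libraries.

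Among the first kind, ENSRNOT00000055950 (member 40, 6498 nt) held 15.3, 14.8 and 28.0 CPM in 24h microglia against 5.85, 7.28 and 7.84 CPM in 24h macrophages and 2.14, 3.98 and 3.17 CPM in 24h sham. In the 7D set it held 2.79, 1.89, 1.45 and 1.85 CPM in microglia, 0.99, 1.13, 0.91 and 0.78 CPM in macrophages, and 2.21, 2.31, 2.62 and 2.89 CPM in sham. The microglia and sham libraries overlapped, and all macrophage libraries were below both. The log2 fold change of microglia over sham was -0.35 ± 0.25 (SE, adjusted p = 0.28).

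ENSRNOT00000074858 (member 48, 1224 nt) had a like pattern at a lower level. It held 8.31, 10.3 and 15.6 CPM in 24h microglia, 3.40, 2.16 and 3.22 CPM in 24h macrophages and 2.01, 1.69 and 1.19 CPM in 24h sham. The 7D microglia held 1.44, 1.65, 1.08 and 0.57 CPM and the 7D sham 1.03, 1.90, 0.54 and 2.38 CPM, which overlap. The 7D macrophages held 0.46, 0.32, 0.45 and 0.42 CPM, below every library of the other 2 groups. A level of 3 counts is 0.212 to 0.272 CPM in these macrophage libraries and 0.271 CPM in sham replicate 3. The separation therefore rests on few counts. Microglia against sham gave a log2 fold change of -0.33 ± 0.45 (SE, adjusted p = 0.58). Member 16, at 6156 nt, held 12.1, 11.3, 16.9 and 11.2 CPM in 7D microglia against 6.07, 18.0, 12.8 and 17.5 CPM in 7D sham, after 85.5, 76.8 and 136 CPM in 24h microglia.

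ENSRNOT00000050002 (member 30, 1675 nt) was present in some libraries and nearly absent in others, across group lines. Its 24h values were 48.8, 62.1 and 0 CPM in microglia, 17.3, 26.4 and 0 CPM in macrophages, and 0, 0.12 and 23.8 CPM in sham. A value of 0 in these libraries allows up to 0.322 to 0.402 CPM, the level of 3 counts, which covers counting error only. The 7D microglia held 0.72, 1.81, 137 and 117 CPM and the 7D macrophages 0.46, 0.81, 135 and 139 CPM. The 4 sham libraries of that set held 55.3, 49.0, 70.6 and 51.3 CPM. Within each set, the microglia and macrophage libraries of the same number were both high or both near 0. Its log2 fold change over 7D sham was 0.16 ± 1.44 (SE, adjusted p = 0.94) in microglia and 0.25 ± 1.44 (adjusted p = 0.90) in macrophages. No direction can be read from these, as limma-voom gave -2.24 (adjusted p = 0.32) and -2.62 (adjusted p = 0.24), and the replicate block gave -2.53 (adjusted p = 0.19) and -2.51 (adjusted p = 0.18). Its place among the members rested on 2 of the 3 microglia libraries. Member 39 was likewise at 0 in 1 microglia, 1 macrophage and 3 sham libraries of the 7D set.

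Of the 12, 5 shared a low value in 1 pair of libraries, those numbered 3 in 7D microglia and 7D macrophages. Member 8, the clearest of them, held 373, 559, 77.6 and 731 CPM in 7D microglia and 300, 464, 46.9 and 701 CPM in 7D macrophages. Its sham libraries held 131, 353, 284 and 116 CPM. The 2 libraries numbered 3 lay under every sham library, while 5 of the other 6 MCAO values were above the sham maximum. With all libraries its log2 fold change of microglia over sham was 0.95 ± 0.73 (SE, adjusted p = 0.32).

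This pair of libraries was low for much of the set. The libraries numbered 3 held the lowest microglia value for 38 members and the lowest macrophage value for 31. Both held for 30 members (58.8%), against 14.6% of all transcripts tested. In sham, number 3 was lowest for 14 members. The median ratio of the library numbered 3 to the median of the other three was 0.628 in microglia and 0.658 in macrophages over the members. Over all transcripts tested it was 1.00 and 0.987. For 15 members (29.4%) the ratio was under 0.5 in both cell groups, against 1.7% of all transcripts tested.

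Without both of these libraries, an alternative chosen after seeing the data, 42 members were higher in 7D microglia than in sham. They included all 39 of the first count. The 3 gained were members 8, 14 and 24, with log2 fold changes of 1.33 ± 0.43 (SE, adjusted p = 0.031), 0.98 ± 0.34 (adjusted p = 0.038) and 1.47 ± 0.44 (adjusted p = 0.022). What sets the pair apart was not tested.

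The next question was whether the members still stood higher in microglia than in macrophages in the 7D set, as titled. The answer depended on whether same-numbered libraries were paired, and the differences were small for most members. Without pairing, 2 of the 51 members were higher in macrophages, 2 were lower and 47 did not pass the test. With the replicate number as a block in a fit of the 8 microglia and macrophage libraries, 10 were higher and 13 lower, where 16.7% and 16.9% of all transcripts were called. Without pairing, 6.51% of all transcripts tested were higher and 4.48% lower in macrophages, so the members' 3.92% in either direction is near that background. The median log2 difference, macrophages minus microglia, was -0.17 for the members and -0.02 over all transcripts tested. It was under 1 in size for 45 members, with a median SE of 0.303. By the measure used for selection, microglia were 0.30 to 3.02 times macrophages with a median of 1.15, and 1 member was at least 2 times higher. Leaving out any 1 library other than 7D sham replicate 3 moved at least 1 of these small counts by over 1.5 times, within 0 to 4 higher and 1 to 5 lower.

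The transcripts that met only the first 2 conditions had 75 of 325 higher in 7D macrophages (23.1%) and 0 lower, with a median log2 difference of 0.24. They failed the condition on macrophages, which favours high macrophage levels, so this share is not an unselected baseline for the members. All 4 libraries of 7D macrophages were below all 4 of microglia for 6 members (11.8%) and above them for 3 (5.88%). Over all transcripts tested these shares were 9.03% and 12.3%. A description of these transcripts as early and induced specifically in microglia goes further than the values. The selection asked only for a level 2 times that of macrophages, and 24h macrophages were themselves at least 2 times sham for 23 members. In the 7D set as titled, 39 of the 51 were higher than sham, and microglia and macrophages differed by under 1 on the log2 scale for 45. The label fields give these macrophages a microglial source and gate, and whether both groups hold the same kind of cell was not tested, as no marker could be named.

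**Figure D4:**
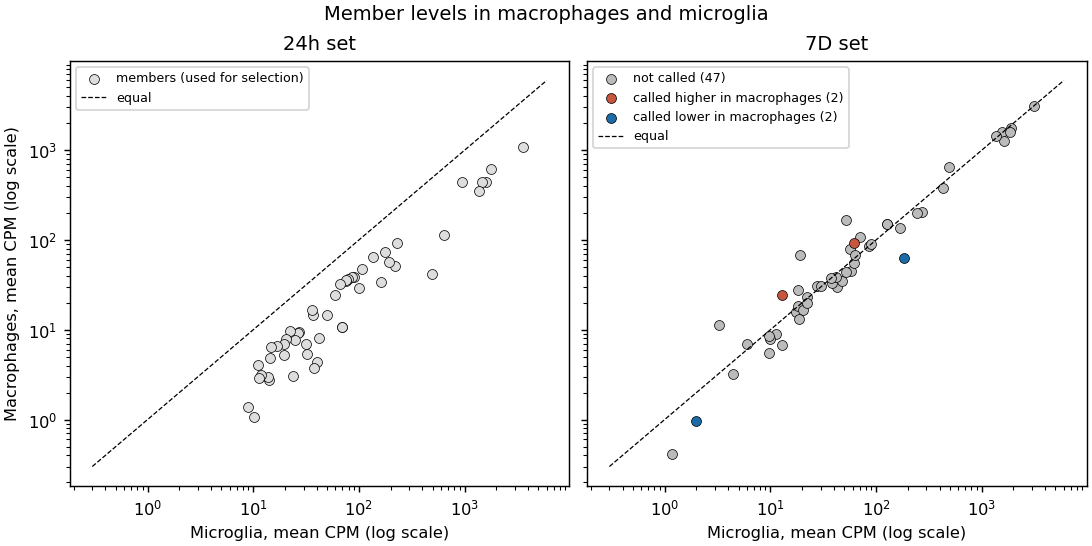
Each point is 1 member, with its mean CPM in microglia on the x axis and in macrophages on the y axis, both on log scales. All points lie under the line of equal levels in the 24h set by selection. In the 7D set they lie along it, with 2 called higher and 2 called lower in macrophages without the block.

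ENSRNOT00000012760, described above, had the most negative log2 difference of macrophages from microglia, at -1.57 ± 0.29 (SE, adjusted p = 0.0052). ENSRNOT00000055950 was the other lower one, at -1.07 ± 0.26 (adjusted p = 0.023), and this call was lost in 6 of 20 alternatives (adjusted p up to 0.077). The call of ENSRNOT00000012760 held in all 20. Member 25 went the other way. Its 7D macrophages held 16.4, 28.8, 28.1 and 23.2 CPM, its 7D microglia 8.38, 13.5, 15.2 and 14.6 CPM and its 7D sham 0.55, 1.02, 0.72 and 0.85 CPM. In the 24h set it had stood at 97.0, 37.8 and 43.7 CPM in microglia and at 20.3, 35.4 and 17.5 CPM in macrophages. The 3 groups of the 7D set did not overlap, and the log2 difference of macrophages from microglia was 0.89 ± 0.22 (SE, adjusted p = 0.025). That call was lost in 5 of 20 alternatives, with an adjusted p up to 0.077.

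Member 26 held 117, 89.0, 86.8 and 74.5 CPM in 7D macrophages and 68.4, 60.2, 61.0 and 59.3 CPM in 7D microglia. Sham was at 3.63, 3.53, 3.08 and 5.61 CPM. The log2 difference of macrophages from microglia was 0.55 ± 0.16 (SE, adjusted p = 0.046), and this call was lost in 13 of 20 alternatives, with the direction kept. Both cell groups were far above sham, with log2 fold changes of 3.95 ± 0.19 (adjusted p = 1.6e-07) in microglia and 4.51 ± 0.19 (adjusted p = 4.3e-08) in macrophages.

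Microglia and macrophage libraries of the same number varied together, as the members show. For 40 of the 51 the lowest value fell in the same number in both groups (78.4%), against 45.2% of all transcripts tested. A fit with the replicate number as a block over the 12 libraries called 4 members higher and 4 lower in macrophages, where 8.61% and 6.53% of all transcripts were called. In the fit of the 8 microglia and macrophage libraries alone, 14 of the 23 differences called were under 0.6 in size on the log2 scale.

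The 12-library block added 5 members to the calls, of which 10, 45 and 50 were higher in macrophages and 37 and 38 lower, and it lost member 26 (adjusted p = 0.051). Member 10 held 138, 257, 69.2 and 204 CPM in 7D macrophages against 50.4, 92.3, 22.4 and 42.4 CPM in 7D microglia. The macrophage library was the higher in each numbered pair. Its log2 difference was 1.68 ± 0.53 (SE, adjusted p = 0.065) without the block and 1.73 ± 0.38 (adjusted p = 0.020) with it. This member had the largest fold over sham in the 24h selection, with 246, 173 and 234 CPM in microglia, 36.9, 71.5 and 47.3 CPM in macrophages, and 4.29, 3.50 and 2.91 CPM in sham.

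Member 45 held 75.4, 96.7, 15.2 and 87.7 CPM in 7D macrophages and 24.8, 32.7, 4.79 and 14.6 CPM in 7D microglia. Its log2 difference was 1.83 ± 0.56 (SE, adjusted p = 0.058), and 1.83 ± 0.35 (adjusted p = 0.012) with the block. Member 50 held 6.91, 16.7, 3.27 and 18.1 CPM in macrophages and 2.64, 5.20, 1.17 and 4.12 CPM in microglia. The log2 difference was 1.76 ± 0.54 (SE, adjusted p = 0.060), and 1.69 ± 0.35 (adjusted p = 0.015) with the block. For both, the macrophage value was the higher one in all 4 numbered pairs. In the other direction, member 37 held 13.5, 15.2, 11.6 and 12.03 CPM in macrophages and 17.6, 23.1, 16.3 and 18.5 CPM in microglia, and member 38 held 4.48, 6.48, 4.27 and 6.93 CPM and 11.0, 8.98, 5.33 and 13.5 CPM. Their log2 differences were -0.53 ± 0.18 (SE, adjusted p = 0.082) and -0.82 ± 0.29 (adjusted p = 0.095) without the block. With it they were -0.53 ± 0.13 (adjusted p = 0.034) and -0.78 ± 0.20 (adjusted p = 0.031). Member 16 was lower in macrophages in the fit of the 8 libraries, at -0.92 ± 0.14 (adjusted p = 0.0034), and missed the threshold without the block (adjusted p = 0.059).

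Against 7D sham microglia, 7D macrophages were higher for 39 members (76.5%) and lower for 3. Over all transcripts tested, 28.4% were higher and 28.1% lower. The median log2 fold change of the members was 2.02, and it was -0.03 over all transcripts tested. Of the 325 transcripts selected without the condition on macrophages, 306 were higher (94.2%) and 0 lower, with a median of 2.50. This comparison and that of microglia use the same sham libraries, so their counts are not independent. Higher in both microglia and macrophages were 37 members, of which 34 showed no call between the 2 cell groups without the block. In that fit 11913 of all 13384 transcripts tested had no call between these groups. The share of all transcripts higher in both was not computed.

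Members 4 and 5 passed the test against sham in microglia and not in macrophages, with log2 fold changes of 1.08 (adjusted p = 0.028) and 1.15 (adjusted p = 0.042) there and 0.70 (adjusted p = 0.12) and 0.93 (adjusted p = 0.078) in macrophages. Members 9 and 14 passed it in macrophages and not in microglia, with 0.97 (adjusted p = 0.0059) and 1.33 (adjusted p = 0.040) there and 0.49 (adjusted p = 0.13) and 0.72 (adjusted p = 0.26) in microglia. Without the block, these 4 had no call between microglia and macrophages. In the fit of the 8 microglia and macrophage libraries with the block, members 4 and 5 were lower in macrophages, with log2 differences of -0.39 ± 0.04 (SE, adjusted p = 0.00085) and -0.22 ± 0.04 (adjusted p = 0.0083). Member 9 was higher there, at 0.46 ± 0.09 (adjusted p = 0.0081).

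The 3 members lower in macrophages than in sham were 16, 40 and 48. ENSRNOT00000074858 was lower by the most, with a log2 fold change of -1.83 ± 0.49 (SE, adjusted p = 0.0070). For ENSRNOT00000055950 it was -1.42 ± 0.26 (adjusted p = 0.00068). In both, every macrophage library lay below every sham library, for ENSRNOT00000074858 on few counts, as given above. Member 16 held 7.44, 6.89, 6.72 and 5.94 CPM in 7D macrophages, overlapping a sham range that began at 6.07 CPM, and its log2 fold change was -1.04 ± 0.29 (adjusted p = 0.0084). These same 3 members stood above sham in the 24h macrophages, at 1.60, 1.89 and 1.45 times in the order of their numbers.

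**Figure D5:**
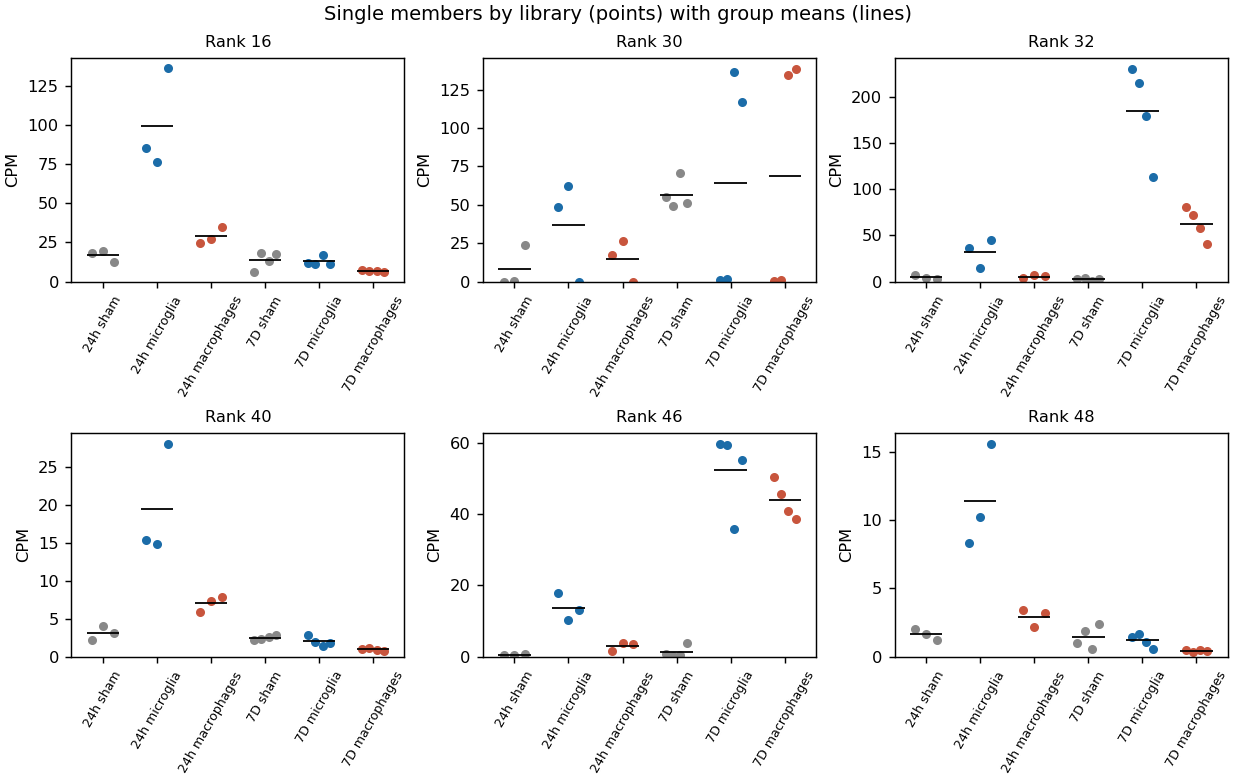
CPM of 6 members in each of the 21 libraries (points) with group means (lines), on linear axes with a scale for each member. Members 32 and 46 are higher in both 7D MCAO groups than in sham. Members 16, 40 and 48 have their highest values in 24h microglia, and member 30 splits the libraries of a group into high and near-0 values.

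The spread between libraries was wider for the members than for other transcripts. The median coefficient of variation was 28.6% in 7D microglia, 25.04% in 7D macrophages and 38.2% in 7D sham. Over all transcripts tested these medians were 14.1%, 12.9% and 18.2%. In 24h microglia, where selection favoured values far from sham, it was 18.9% against 13.0%.

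Transcript length and divided reads were not used in the selection. Length had a median of 2375 nt (420 to 10069 nt), against 2065 nt over all transcripts tested, and 6 were over 5000 nt long. Expected counts were not whole in at least 1 library for 12 members (23.5%), against 29.7% of all transcripts tested. A count that is not whole marks reads that the estimator divided between transcripts. Members 22 and 23 shared all their values, which makes 2 of the 51, against 114 of the 13384 transcripts tested with such a twin. As this is 1 pair, no difference in share can be read from it.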

How the data were processed

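Libraries were strand-specific and made from poly(A) RNA, per the labels' protocols. The submitters' processing notes name bcl2fastq, TopHat2, RSEM and build rn5; their versions and the annotation are not given in the sources used here. The authors deposited RSEM expected counts per transcript, which divide reads shared between isoforms or copies. They also deposited TPM, used here only for levels per length. The files end with 2 lines named Chi3l1 and Nos2, whose values are displaced from their headers; these were left out of the fits.

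Rounded expected counts of the 12 libraries of the 7D set entered edgeR 4.0.16 (R 4.3.3). The quasi-likelihood test was used with TMM scaling, 1 term per group and filterByExpr (min.count 10, min.total.count 15). Adjusted p-values are Benjamini-Hochberg values over 13384 transcripts, and a transcript was called, or said to rise, under 0.05. Standard errors are approximate, from the log2 fold change and its F statistic. Levels are TMM-normalised CPM over all 21 libraries. The script was tested on simulated data with known answers.

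Same-numbered 7D microglia and macrophage libraries deviated together from their group means (r = 0.30, 0.22, 0.27 and 0.28 across transcripts for numbers 1 to 4), so these numbers pair the libraries, as a property of the data and not of the labels. Neither group paired with sham in this way (r from -0.10 to 0.18).

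The members and lists were chosen with earlier results of these data known. Members named by identifier were the 2 with the largest rise over 7D sham among those called without overlap. By that rule 0 members fell, and the other 3 identifiers were chosen after their values were seen. The lists of genes and cell type markers could not be applied without gene names. Alternatives changed the normalisation, test, filter, libraries, block and selection rule.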

Additional observations from a re-analysis of the deposited data

Results flagged for a closer look

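Sets of 4 libraries were examined for the members shown and for the summed and median member level. In 4 of these 51 sets, all of them of a member, 1 library stood apart from the other three by Dixon's criterion, which chance alone meets in about 1 of 20 sets. Member 16 had a highest 7D microglia value of 16.9 CPM. In 7D sham replicate 4, member 38 reached 1.7 CPM and ENSRNOT00000017784 reached 3.74 CPM. Member 45 had a lowest 7D sham value of 0.789 CPM.

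For 3 members every macrophage library was below every microglia library in the 24h set and above it in the 7D set. In the 7D set alone, 5.88% of the members had every macrophage library above, fewer than the 12.3% of all transcripts tested. Their log2 differences in the 7D set, macrophages minus microglia, were 0.89 for member 25, 0.55 for member 26 and 0.61 for member 44. Without the replicate block, members 25 and 26 were called and member 44 was not (adjusted p = 0.18). In the fit of the 8 microglia and macrophage libraries with the block, all 3 were called, with adjusted p of 0.00093, 0.0032 and 0.0029. The call of member 26 was lost in 13 of 20 alternatives. The 24h direction was fixed by the selection, and the difference between the sets was not tested.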

How the results depend on the processing

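No called value of a member followed across alternatives changed sign. In 17 cases a value of a single member without a call did, 2 of them small values of member 16 (0.04 and 0.06) and the others of ENSRNOT00000050002. For that transcript against sham, 0.16 in microglia became -2.24 with limma-voom and -2.53 with the replicate block, and 0.25 in macrophages became -2.62 and -2.51. The median difference of macrophages from microglia, -0.17, was 0.01 without 7D macrophage replicate 3. In all, 195 recomputed counts and medians stayed near the value reported, while 32 moved. Most of the latter concern macrophages against microglia in the 7D set, where 2 members were called higher and 2 lower. The number higher was 6 with DESeq2, 4 with limma-voom, 1 with no filter on low counts and 4 with all 21 libraries in the fit, and 0 to 4 when 1 library was left out. The number lower was 1 with no filter and 4 with all 21 libraries, and 1 to 5 when 1 library was left out. It reached 5 without 7D microglia replicate 3, and the number higher was 0 without 7D microglia replicate 1 or 7D macrophage replicate 2 and 4 without 7D sham replicate 4. With the replicate block, the counts were 4 higher and 4 lower over 12 libraries, and 10 higher and 13 lower in the fit of the microglia and macrophage libraries alone; the block did not move the counts against sham by over 1.5 times. The cause of these moves was not tested.

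Against sham, leaving out 1 library gave 36 to 40 members higher in 7D microglia, and 37 to 43 higher and 3 lower in 7D macrophages. The medians ran from 1.82 to 2.22 and from 1.89 to 2.25, and from -0.29 to 0.01 for macrophages against microglia.

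The selection depended on the 24h libraries. Leaving out 1 gave 42 to 70 members, with 70 without microglia replicate 2 and 66 without macrophage replicate 2. Stricter limits (5 times sham and 3 times macrophages) gave 16. Groups by the cell fraction field gave 5, of which 3 were tested, with 1 higher than sham in microglia and 1 higher and 0 lower in macrophages, and 0 higher and 0 lower between the cell groups. Depth was 11115359 to 15401910 expected counts per library in the 7D set, which limits the lowest members most.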
